A study of Homo sapiens with 4 samples.

Results

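The genes described here store iron, carry it across membranes, sense it or release it from heme: FTL, FTH1, HMOX1, TFRC, IREB2, ACO1, NCOA4, SLC11A2 and SLC40A1. They were taken by gene name from the table of gene counts, and all 9 were found among 58735 genes. The cells were SW1990, an established human pancreatic cancer line, cultured in DMEM. One group of 2 libraries received 10 µM Gomisin G, a lignan of Schisandra plants, for 24 h, and the other group of 2 libraries received vehicle for 24 h. Nothing in the labels puts the replicates in separate cultures, and the p-values therefore reflect only how far these libraries spread, which may be technical.

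A cell takes up most of its iron as transferrin, through the transferrin receptor encoded by TFRC, and DMT1, encoded by SLC11A2, moves the freed iron out of the endosome. Iron that is not used is stored in ferritin, a shell of light (FTL) and heavy (FTH1) chains, or leaves through ferroportin, encoded by SLC40A1. Ferritin is broken down with the help of the autophagy receptor encoded by NCOA4, and heme oxygenase 1, encoded by HMOX1, frees iron from heme. The iron regulatory proteins, encoded by ACO1 and IREB2, bind hairpins called iron-responsive elements when iron is low. Bound in a 5′ UTR, they block translation of the mRNA, and bound in the TFRC 3′ UTR they protect it from decay.

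Hairpin loops are shown for the members that carry a match, since the iron regulatory proteins are known to bind such loops. A search of GENCODE release 29 transcripts looked on the sense strand for the loop CAGTGN with a base other than G in the last position. It required 5 paired bases (G with T allowed) on either side and a C directly before the stem. Whether that C was unpaired was not checked. Of the 9 genes, 4 had a match in a UTR. FTL, FTH1 and SLC40A1 each had 1 in the 5′ UTR, and TFRC had 4 in the 3′ UTR. The sites are 30 bases long on GRCh38, read 5′ to 3′ as DNA letters on the strand of the gene, with the loop in capitals.
FTL, 5′ UTR, chr19:48965335-48965364 (plus strand): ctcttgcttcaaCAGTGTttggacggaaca
FTH1, 5′ UTR, chr11:61967573-61967602 (minus strand): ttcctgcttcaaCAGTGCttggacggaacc
SLC40A1, 5′ UTR, chr2:189580660-189580689 (minus strand): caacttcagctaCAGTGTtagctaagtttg
TFRC, 3′ UTR, chr3:196050978-196051007 (minus strand): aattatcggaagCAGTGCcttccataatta
TFRC, 3′ UTR, chr3:196050574-196050603 (minus strand): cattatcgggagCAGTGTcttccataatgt
TFRC, 3′ UTR, chr3:196050509-196050538 (minus strand): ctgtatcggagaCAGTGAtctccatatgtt
TFRC, 3′ UTR, chr3:196050462-196050491 (minus strand): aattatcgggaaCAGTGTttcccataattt

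The site began at base 35 of the FTL transcript, at base 59 of the FTH1 transcript and at base 199 of the SLC40A1 transcript, ahead of the coding sequence in each. The match was present in 5 of 6 FTH1 transcripts searched and in all 3 of TFRC. Among one transcript for each of 19666 protein-coding genes, 12 genes (0.061%) had such a match in the 5′ UTR and 81 (0.412%) had one in the 3′ UTR. SLC11A2, some transcripts of which are known to carry an element of this kind, had no match, which says only that these letters and pairs were not found in its UTRs. A match is a description of the sequence, and protein binding and translation were not measured.

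Total counts per library were 15034663 and 15245770 with Gomisin G and 14580848 and 14901526 with vehicle, so that 3 counts, the limit that a count of 0 allows, come to 0.197 to 0.206 CPM (counts set against library size). Such floors, and the counting interval given later, cover no error other than that of counting. The Gomisin G pair was further apart than the vehicle pair, with a median absolute log2 difference of 0.30 against 0.13 over 12977 genes averaging 1 or more in log2 CPM. Replicate 1 of Gomisin G also stood apart by gene length: genes of the shortest length tertile lay at 0.22 and those of the longest at -0.21 relative to their mean over the 4 libraries (medians, log2), whereas the medians of the other 3 libraries lay between -0.12 and 0.11. All 10 epithelial and duct markers of the labelled cell type were detected. Their levels in TPM (counts per kilobase of gene, scaled to the same total in each library) were summed. The sum was 6300 to 6633 TPM with Gomisin G and 7517 to 8757 TPM with vehicle. These markers were uneven. The keratin gene KRT8 had 4790 and 3663 CPM with Gomisin G and 6572 and 5332 CPM with vehicle. KRT18 was likewise lower, at 2542 and 1722 CPM with Gomisin G and 3126 and 2711 CPM with vehicle. KRT19 went the other way, at 1013 and 723 CPM with Gomisin G and 595 and 486 CPM with vehicle. KRT7, another keratin gene of the list, was low, at 2.07 and 0.884 CPM with Gomisin G and 0.966 and 0.875 CPM with vehicle. Summed levels of marker genes of other cell types were low beside the epithelial and duct sum. For 7 erythroid genes the sums were 2.10 to 2.55 TPM with Gomisin G and 1.32 to 1.54 TPM with vehicle, with the hemoglobin genes HBB and HBG1 at 0. For 6 macrophage genes they were 8.45 to 8.52 TPM with Gomisin G and 8.86 to 11.2 TPM with vehicle, with CD163 and PTPRC at 0. For 5 hepatocyte genes they were 0.627 to 0.788 TPM with Gomisin G and 0.0915 to 0.152 TPM with vehicle. For 6 fibroblast genes they were 2.81 and 4.59 TPM with Gomisin G and 1.77 and 1.83 TPM with vehicle, with COL1A2 and LUM at 0 in all libraries.

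All 9 genes passed the expression filter and were tested, among 15721 genes in all. One, SLC40A1, rose at a Benjamini-Hochberg adjusted p below 0.05 (edgeR quasi-likelihood test over all tested genes), and 0 fell. Over all tested genes 1.83% were called in either direction, 0.922% higher and 0.903% lower. DESeq2 called 2 members higher (FTL and SLC40A1) and 0 lower, and limma voom called 0, where DESeq2 called 5.17% and limma voom 1.58% of the same 15721 genes. An unadjusted p below 0.05 was found for 5 members and for 20.6% of all tested genes. In 8 members both Gomisin G libraries lay on one side of both vehicle libraries, 3 above and 5 below. Over all tested genes 54.2% were separated in this way, 27.0% above and 27.3% below, so that separation alone was common. Log2 changes (Gomisin G minus vehicle, with the standard error as SE) were above 0 for 3 members and below 0 for 6, and their median was -0.15, against 0.01 over all tested genes. In bulk RNA, fewer cells that express a gene and less of its RNA per cell cannot be told apart.

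**Figure D1:**
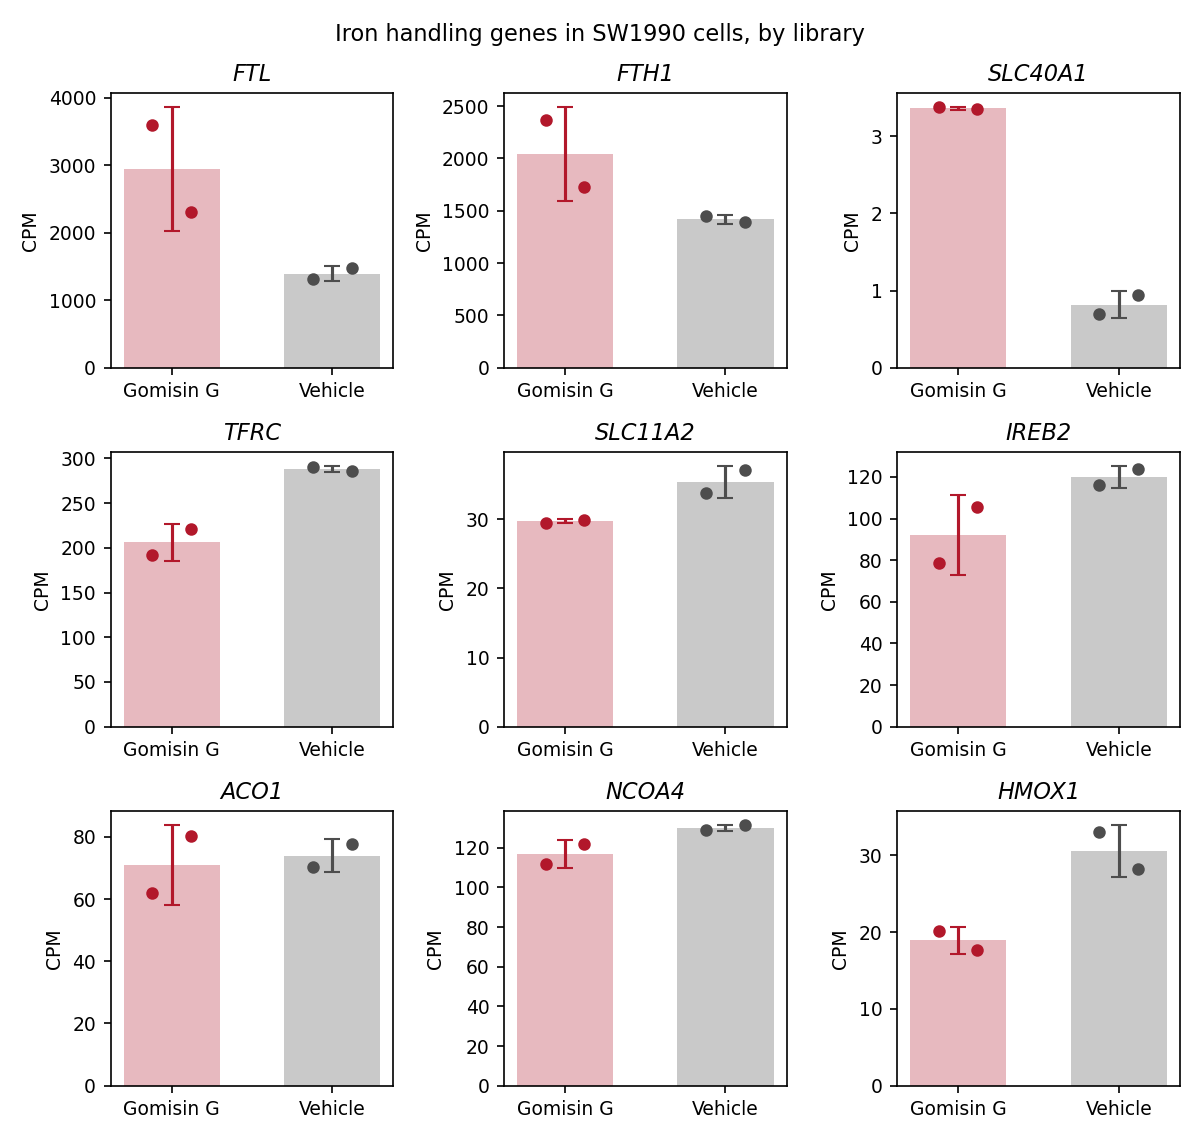
CPM of the 9 iron handling genes in each library (points), with the mean (bar) and SD (line) of the 2 Gomisin G libraries at left and the 2 vehicle libraries at right; each panel has its own axis from 0. FTL, FTH1 and SLC40A1 lie higher in both Gomisin G libraries, HMOX1, TFRC, SLC11A2, IREB2 and NCOA4 lie lower in both, and the groups overlap for ACO1.

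The iron exporter message rose. SLC40A1 encodes ferroportin, the known exporter of iron from mammalian cells, and had 49 and 53 counts with Gomisin G and 10 and 14 counts with vehicle. Scaled to library size these were 3.38 and 3.35 CPM with Gomisin G and 0.690 and 0.942 CPM with vehicle. The Gomisin G libraries were alike and both stood well above the vehicle libraries, and every library was above the floor. Over both libraries of a group the ratio of counts, adjusted for library totals, was 4.14 (95% exact counting interval 2.63 to 6.75). The log2 change was 2.03 (SE 0.38, edgeR adjusted p = 0.0406), higher than the log2 change of 99.6% of tested genes. The gene lies on chromosome 2 at 189560579 to 189583758 (GRCh38, minus strand). The call was lost in limma voom (adjusted p = 0.0586) and when Vehicle replicate 1 (adjusted p = 0.185) or Vehicle replicate 2 (adjusted p = 0.0785) was left out, and the log2 change lay between 1.82 and 2.27 in all alternatives that gave one. A pseudogene of SLC40A1 on chromosome 7, AC005682.1, had 8 and 7 counts with Gomisin G and 17 and 24 counts with vehicle, the opposite order. How reads that match both genes were counted is not given in the sources. Macrophages and hepatocytes are known for ferroportin, and 49 and 53 SLC40A1 counts with Gomisin G stood beside 84 and 78 summed counts of the 6 macrophage markers and 12 and 14 of the 5 hepatocyte markers. With vehicle, 10 and 14 SLC40A1 counts stood beside 76 and 99 of the macrophage markers and 2 and 4 of the hepatocyte markers. Summed counts of the 6 fibroblast markers were 124 and 186 with Gomisin G and 68 and 73 with vehicle. At most 3 counts in every library were found for 4 of the 6 macrophage, 4 of the 5 hepatocyte and 4 of the 6 fibroblast markers. The part of such cells in the result was not tested.

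Both ferritin chains were among the most abundant messages and had positive log2 changes that did not pass the test. FTL, the light chain, on chromosome 19 at 48965301 to 48966878 (plus strand), had 3603 and 2302 CPM with Gomisin G and 1313 and 1479 CPM with vehicle. Both Gomisin G libraries lay above both vehicle libraries, and replicate 1 of Gomisin G was the highest. By raw count FTL was the 14th and 21st gene of its library with Gomisin G and the 52nd and 40th with vehicle. Its log2 change was 1.08 (SE 0.26, edgeR adjusted p = 0.0786, unadjusted p = 0.00323), with replicate 1 of Gomisin G 1.37 and replicate 2 0.72 above the vehicle mean on that scale. DESeq2 called FTL (adjusted p = 0.000235). FTL is short, at 878 bases, and the 429 genes within 0.5 of its log2 length had a median log2 change of 0.24. With the length trend of each library removed the log2 change of FTL was 0.85 (adjusted p = 0.0554).

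FTH1, the heavy chain, which carries the ferroxidase activity of ferritin, had 2364 and 1729 CPM with Gomisin G and 1447 and 1389 CPM with vehicle. The groups did not overlap, but replicate 2 of Gomisin G lay closer to vehicle than to replicate 1. The log2 change was 0.53 (SE 0.22, edgeR adjusted p = 0.231), and FTH1 lies on chromosome 11 at 61959718 to 61967660 (minus strand). That value was 0.30 with the length trend removed, 0.28 without replicate 1 of Gomisin G and 0.74 (adjusted p = 2.1e-09, from a fit whose spread comes from the vehicle pair alone) without replicate 2. The sum of both ferritin chains was 5967 and 4031 CPM with Gomisin G and 2759.8 and 2867 CPM with vehicle. The group means of its log2 values differed by 0.80. Ferritin messages thus held 0.575 and 0.419% of all gene counts with Gomisin G and 0.274 and 0.286% with vehicle.

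The balance of the chains was compared within each library. FTL counts per kilobase were 3.52 and 3.08 times those of FTH1 with Gomisin G and 2.10 and 2.46 times with vehicle. By raw counts the ratios were 1.52 and 1.33 with Gomisin G and 0.908 and 1.06 with vehicle. The level of the ratio thus depends on the lengths used. FTH1 had a gene length of 2030 bases, but its transcript used for the hairpin position had 1229, whereas both lengths were 878 for FTL. The ratio, which does not depend on library scaling, was higher in both Gomisin G libraries than in both vehicle libraries, by 0.53 on the log2 scale. An exact two-sided permutation test over the 4 libraries gave p = 0.333, the smallest it can give with 2 against 2. The chains have many processed pseudogenes, but the 16 annotated for FTL held 61 and 53 counts with Gomisin G and 35 and 41 with vehicle, 0.117 to 0.186% of the parent and its copies. The 25 of FTH1 held 437 and 308 counts with Gomisin G and 241 and 243 with vehicle, 1.11 to 1.26%. The pseudogenes with the most counts were FTLP3 and FTLP14 for FTL and FTH1P7 and FTH1P8 for FTH1, and adding all pseudogene counts to the parents left the ratio difference at 0.53 and the log2 changes at 1.08 and 0.53.

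**Figure D2:**
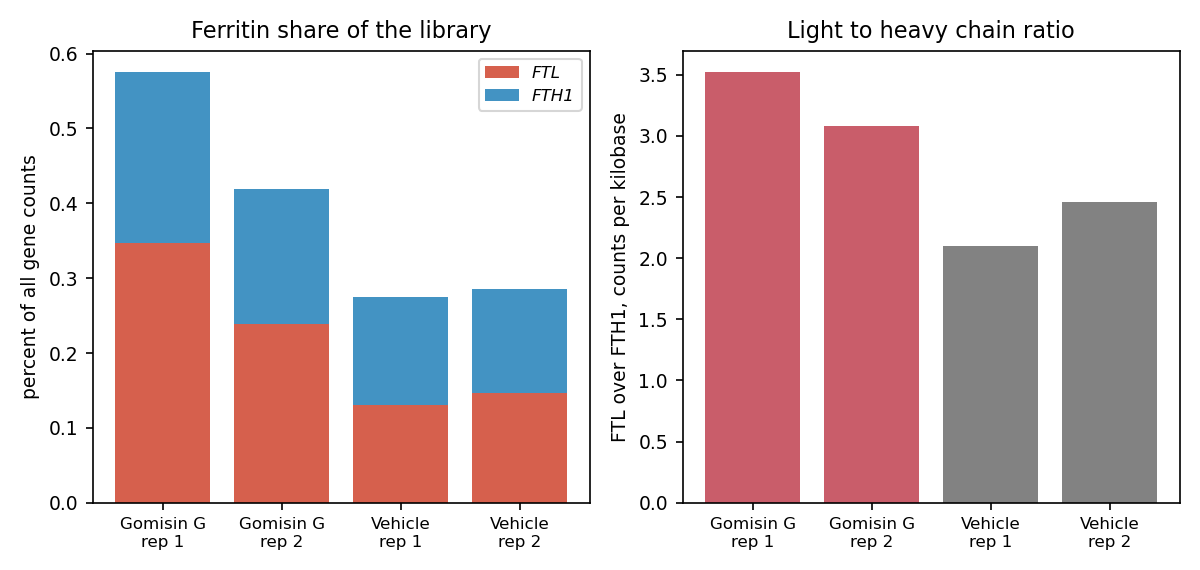
Left, percent of all gene counts held by FTL and FTH1 in each library, stacked. Right, FTL over FTH1 in counts per kilobase in each library; the Gomisin G libraries stand at 3.52 and 3.08 and the vehicle libraries at 2.10 and 2.46.

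Both uptake genes lay lower in the Gomisin G libraries than in the vehicle libraries, without passing the test. TFRC, the transferrin receptor, on chromosome 3 at 196027183 to 196082189 (minus strand), had 192 and 221 CPM with Gomisin G and 291 and 286 CPM with vehicle. The vehicle libraries were close together, and both Gomisin G libraries lay below them. The log2 change was -0.48 (SE 0.16, edgeR adjusted p = 0.151), and -0.36 with the length trend removed. SLC11A2, which encodes the divalent metal transporter DMT1, had 29.5 and 29.9 CPM with Gomisin G and 33.8 and 37.1 CPM with vehicle, a log2 change of -0.26 (SE 0.16, adjusted p = 0.402). It lies on chromosome 12 at 50979401 to 51028566 (minus strand), and its 3005 neighbours within 0.5 of its log2 length had a median of -0.16. Without the length trend its value was -0.06.

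Set beside the hairpins printed above, the 3 genes with a 5′ UTR match (FTL, FTH1 and SLC40A1) were higher in both Gomisin G libraries. TFRC, with 4 matches in the 3′ UTR, was lower in both, but so were HMOX1, IREB2, NCOA4 and SLC11A2, which had no match. Over all tested genes 27.0% were higher and 27.3% lower in both Gomisin G libraries than in both vehicle libraries. The other genes with a 5′ UTR match did not share a direction. Of the 12, 11 were tested, and the 8 that are not members had log2 changes from -0.47 for GART, a purine synthesis enzyme, to 0.75 for TMEM198, with 0 called by edgeR, DESeq2 or limma voom and 2 at an unadjusted p below 0.05. Of the 81 genes with a 3′ UTR match, TFRC among them, 60 were tested, with 28 above and 32 below a log2 change of 0 and a median of -0.05. Among these edgeR called 3 higher and 0 lower, DESeq2 called 5 and limma voom 3, and 17 had an unadjusted p below 0.05. The shares over all tested genes were 1.83%, 5.17%, 1.58% and 20.6% in that order, and no test compared the sets. ALAS2, the erythroid enzyme of heme synthesis that also has such a match, had 0 and 3 counts with Gomisin G and 2 and 2 with vehicle and was not tested. EPAS1, known for an element of this kind, had no match by these letters and a log2 change of 0.05 (SE 0.23). CDC14A, a phosphatase gene with a 3′ UTR match in 1 of 7 transcripts, had 4.97 and 4.23 CPM with Gomisin G and 11.0 and 9.08 CPM with vehicle (log2 change -1.12, SE 0.24, edgeR adjusted p = 0.059). It was called by DESeq2 and, with the length trend removed, by edgeR (adjusted p = 0.0468). This match was not in the one transcript taken for the count of 81.

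Neither gene of the iron sensors passed the test. IREB2, which encodes IRP2, had 78.5 and 105.5 CPM with Gomisin G and 116 and 124 CPM with vehicle, a log2 change of -0.38 (SE 0.18, edgeR adjusted p = 0.283). Its size rested on replicate 1 of Gomisin G: without it the log2 change was -0.19, and with the length trend removed it was also -0.19. Without replicate 2 of Gomisin G it was -0.61 (adjusted p = 1.47e-05, spread from the vehicle pair alone). IREB2 is the longest member, at 10806 bases of exon on chromosome 15 (78437431 to 78501456, plus strand), and the 2636 genes within 0.5 of its log2 length had a median of -0.18. ACO1, which encodes the cytosolic aconitase IRP1, had 62.0 and 80.2 CPM with Gomisin G and 70.2 and 77.7 CPM with vehicle, and the groups overlapped. Its log2 change of -0.06 (SE 0.18, adjusted p = 0.888) turned to 0.05 with the length trend removed, 0.02 without Vehicle replicate 2 and 0.11 without Gomisin G replicate 1. ACO1 lies on chromosome 9 at 32384603 to 32454769 (plus strand). FBXL5, whose product is the iron-sensing ubiquitin ligase subunit that marks IRP2 for decay, had 49.2 and 50.1 CPM with Gomisin G and 53.9 and 51.1 CPM with vehicle (log2 change -0.08, SE 0.16).

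NCOA4, the receptor that carries ferritin to the autophagosome, had 112 and 122 CPM with Gomisin G and 129 and 131 CPM with vehicle. Both Gomisin G libraries were slightly lower, and the log2 change of -0.15 (SE 0.15, edgeR adjusted p = 0.588) was no larger than its SE. NCOA4 lies on chromosome 10 at 46005088 to 46030714 (minus strand). Of its partners in autophagy, MAP1LC3B, a coat protein of the autophagosome, had 88.9 and 72.6 CPM with Gomisin G and 54.1 and 56.1 CPM with vehicle (log2 change 0.55, SE 0.17, adjusted p = 0.129). The autophagy genes ATG5, GABARAPL2 and ATG7 had log2 changes of 0.20 (SE 0.16), 0.24 (SE 0.22) and -0.06 (SE 0.17). TAX1BP1, an autophagy receptor named here after its values were seen, had 183.6 and 186.3 CPM with Gomisin G and 247.8 and 231.9 CPM with vehicle (log2 change -0.38, SE 0.15, adjusted p = 0.219, and -0.21 with the length trend removed).

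Heme breakdown genes did not share a direction. HMOX1, the inducible heme oxygenase, on chromosome 22 at 35380361 to 35394214 (plus strand), had 291 and 280 counts with Gomisin G and 479 and 419 counts with vehicle. In CPM these were 20.1 and 17.7 with Gomisin G and 33.0 and 28.2 with vehicle, so that both Gomisin G libraries were lower. The log2 change was -0.70 (SE 0.18, edgeR adjusted p = 0.092). With the length trend removed it was -0.87 and passed the test (adjusted p = 0.0206), and it lay between -0.87 and -0.58 in all alternatives. HMOX2, the constitutive heme oxygenase, had 84.5 and 60.7 CPM with Gomisin G and 62.5 and 59.5 CPM with vehicle. The HMOX2 groups overlapped (log2 change 0.25, SE 0.19), and the value was -0.01 without Gomisin G replicate 1.

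The biliverdin reductases, which act on the product of heme oxygenase, had positive log2 changes. BLVRA had 84.1 and 53.2 CPM with Gomisin G and 27.4 and 33.8 CPM with vehicle, and BLVRB had 99.9 and 69.9 CPM with Gomisin G and 48.7 and 50.3 CPM with vehicle. In both, the groups did not overlap and replicate 1 of Gomisin G was the highest. The log2 changes were 1.16 (SE 0.24, edgeR adjusted p = 0.0583) for BLVRA and 0.78 (SE 0.20, adjusted p = 0.0893) for BLVRB, and DESeq2 called both. With the length trend removed BLVRA passed the edgeR test (adjusted p = 0.0382) at 0.91, and BLVRB, at 0.53, did not (adjusted p = 0.0683). Without replicate 1 of Gomisin G the BLVRA value was 0.79 and the BLVRB value was 0.50. POR, the reductase that feeds electrons to heme oxygenase, had 290.1 and 246 CPM with Gomisin G and 166 and 180.2 CPM with vehicle (log2 change 0.63, SE 0.17, adjusted p = 0.092). POR was called by DESeq2 and, with the length trend removed, by edgeR. Its log2 change was 0.50 without replicate 1 of Gomisin G.

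The genes of 3 regulators of HMOX1 and ferritin transcription did not pass the test. NFE2L2, which encodes the activator NRF2, had a log2 change of 0.03 (SE 0.16), and -0.07 without Gomisin G replicate 1. KEAP1, which holds NRF2 in check, had one of 0.14 (SE 0.15). BACH1, which encodes the heme-binding repressor of HMOX1 and ferritin genes, had 17.6 and 31.1 CPM with Gomisin G and 30.2 and 29.7 CPM with vehicle. Its log2 change of -0.30 (SE 0.26) rested on replicate 1 of Gomisin G, and was 0.05 without it.

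**Figure D3:**
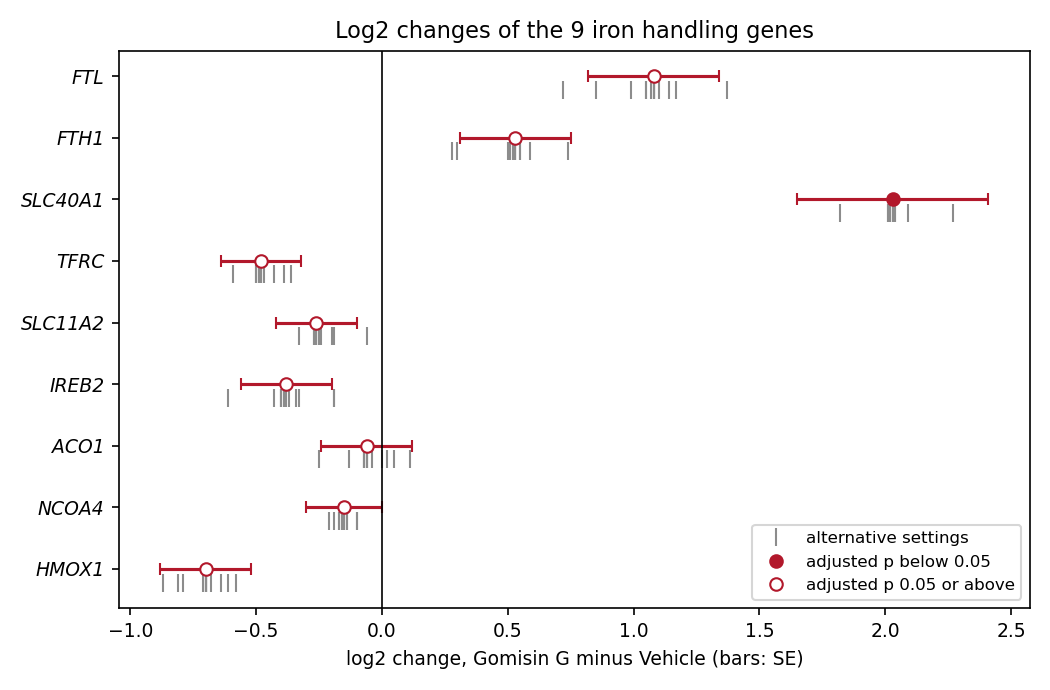
Log2 changes (Gomisin G minus vehicle) of the 9 genes with SE bars from the edgeR fit; a filled point has an adjusted p below 0.05. Grey ticks are the alternative settings, among which SLC40A1 lies between 1.82 and 2.27 and ACO1 falls on both sides of 0.

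Levels between the genes are compared in TPM, which divides by gene length. That length exceeded the length of the transcript used for the hairpin positions in FTH1 (2030 against 1229 bases). The same held for TFRC (7887 against 5111) and SLC40A1 (4330 against 3442). A longer length gives a lower TPM for the same counts. The ferritin chains stood far above the rest, with FTL at 10055 ± 1711 TPM with Gomisin G and 5272 ± 433 TPM with vehicle, and FTH1 at 3035 ± 229 TPM with Gomisin G and 2316 ± 71.1 TPM with vehicle (mean ± SD, n = 2 libraries each). TFRC and NCOA4 followed. TFRC had 80.5 ± 19.6 TPM with Gomisin G and 121 ± 1.75 TPM with vehicle, and NCOA4 had 88.1 ± 18.0 TPM with Gomisin G and 106 ± 1.13 TPM with vehicle. The order of this pair differed between the groups. Within each Gomisin G library NCOA4 was the higher (75.4 against 66.7 TPM in replicate 1, 100.8 against 94.4 TPM in replicate 2). Within each vehicle library TFRC was the higher (122.5 against 105.1 TPM in replicate 1, 120.0 against 106.7 TPM in replicate 2). Taken across the Gomisin G libraries, the values of the pair overlapped. HMOX1, IREB2 and ACO1 lay between 20.0 and 35.8 TPM with Gomisin G and between 30.8 and 45.6 TPM with vehicle. By mean level HMOX1 was number 7 of the 9 with Gomisin G and number 5 with vehicle. SLC11A2 had 8.95 ± 1.38 TPM with Gomisin G and 11.6 ± 0.753 TPM with vehicle. SLC40A1 was lowest in both groups, at 2.38 ± 0.326 TPM with Gomisin G and 0.625 ± 0.136 TPM with vehicle.

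The wider iron and heme pathway was described by 6 lists of 129 genes, of which 111 were tested. Of the 111, 1 rose and 0 fell by edgeR, where 1.83% of all tested genes were called. DESeq2 called 5 higher and 2 lower, against 5.17% of all tested genes, and limma voom called 1, against 1.58%. An unadjusted p below 0.05 was found for 16 of the 111, and for 20.6% of all tested genes, which is the share to set beside the unadjusted counts of each list below. By sign 66 lay above and 45 below a log2 change of 0, with 0.07 as the median. The gene that rose was TP53INP2, known as a regulator of autophagosome formation and not as an iron carrier, with 13.9 and 14.2 CPM with Gomisin G and 5.38 and 4.64 CPM with vehicle. Its log2 change was 1.49 (SE 0.22, adjusted p = 0.024), and the call was lost without Vehicle replicate 2 (adjusted p = 0.0912).

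In the list for iron uptake and export 16 of 24 genes were tested, with 0 called by edgeR, 1 higher and 2 lower at an unadjusted p below 0.05 and a median log2 change of -0.10. SLC39A14, a zinc transporter that also takes up iron not bound to transferrin, had 134 and 162 CPM with Gomisin G and 216 and 223 CPM with vehicle (log2 change -0.57, SE 0.16, adjusted p = 0.115), and DESeq2 called it and RHBDF2. STEAP2, of the family of metalloreductases, had 11.6 and 11.2 CPM with Gomisin G and 16.6 and 16.8 CPM with vehicle (log2 change -0.55, SE 0.19, adjusted p = 0.156). For RHBDF2, an inactive rhomboid protein, the log2 change was 0.68 (SE 0.19, adjusted p = 0.103), and edgeR called it with the length trend removed (adjusted p = 0.0287). The liver hormone gene HAMP, the transferrin gene TF and the ferroxidase gene CP did not pass the expression filter.

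The list for mitochondrial iron and iron-sulfur clusters had 21 of 23 genes tested, 0 called by edgeR, DESeq2 or limma voom, 2 lower at an unadjusted p below 0.05 and a median of 0.08. The mitochondrial transporter genes ABCB10 and SLC25A37 (mitoferrin 1) had log2 changes of -0.46 (SE 0.17) and -0.37 (SE 0.16), and the mitochondrial chaperone gene HSPA9 one of -0.38 (SE 0.17). With the length trend removed SLC25A37 and HSPA9 were both at -0.24. In the list for heme synthesis and transport 21 of 25 were tested, with 0 called by edgeR, DESeq2 or limma voom, 1 higher and 1 lower at an unadjusted p below 0.05 and a median of 0.07. PPOX, the penultimate enzyme of heme synthesis, had 25.7 and 27.3 CPM with Gomisin G and 16.7 and 17.0 CPM with vehicle (log2 change 0.65, SE 0.17, adjusted p = 0.0924). It passed the test with the length trend removed. The transporter gene FLVCR2 had a log2 change of -1.03 (SE 0.42), at 0.898 and 1.96 CPM with Gomisin G and 2.62 and 3.30 CPM with vehicle. It was -0.60 without replicate 1 of Gomisin G and -1.71 (adjusted p = 0.00497, spread from the vehicle pair alone) without replicate 2. HEBP2, of the heme-binding protein family, had a log2 change of 0.36 (SE 0.16), which was 0.22 without replicate 1 of Gomisin G and 0.57 with the length trend removed.

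The list for iron sensing and cytosolic delivery, which holds TP53INP2, CDC14A and MAP1LC3B, had 24 of 25 genes tested, 2 higher and 2 lower at an unadjusted p below 0.05 and a median of 0.04. The list for heme breakdown and its regulators had all 11 tested, 0 called by edgeR, 3 higher at an unadjusted p below 0.05 (BLVRA, BLVRB and POR), where 20.6% of all tested genes had such a p in either direction, and a median of 0.14. In the list for lipid peroxide control and ferroptosis, an iron-dependent form of cell death, 18 of 21 were tested, with 0 called by edgeR, DESeq2 or limma voom, 2 higher at an unadjusted p below 0.05 and a median of 0.13. GPX4, the peroxidase that restrains ferroptosis, had 376 and 255 CPM with Gomisin G and 227 and 214 CPM with vehicle (log2 change 0.52, SE 0.21, adjusted p = 0.218). The GPX4 value was 0.21 without replicate 1 of Gomisin G, 0.28 with the length trend removed and 0.77 (adjusted p = 2.8e-10, spread from the vehicle pair alone) without replicate 2. ALOX5, a lipoxygenase gene, had a log2 change of 1.04 (SE 0.37) at 4.77 and 2.84 CPM with Gomisin G and 1.86 and 1.82 CPM with vehicle. That was 0.62 without replicate 1 of Gomisin G and 1.37 (adjusted p = 0.0015, spread from the vehicle pair alone) without replicate 2. ACSL4, which loads membranes with peroxidizable fatty acids, had one of -0.35 (SE 0.17).

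**Figure D4:**
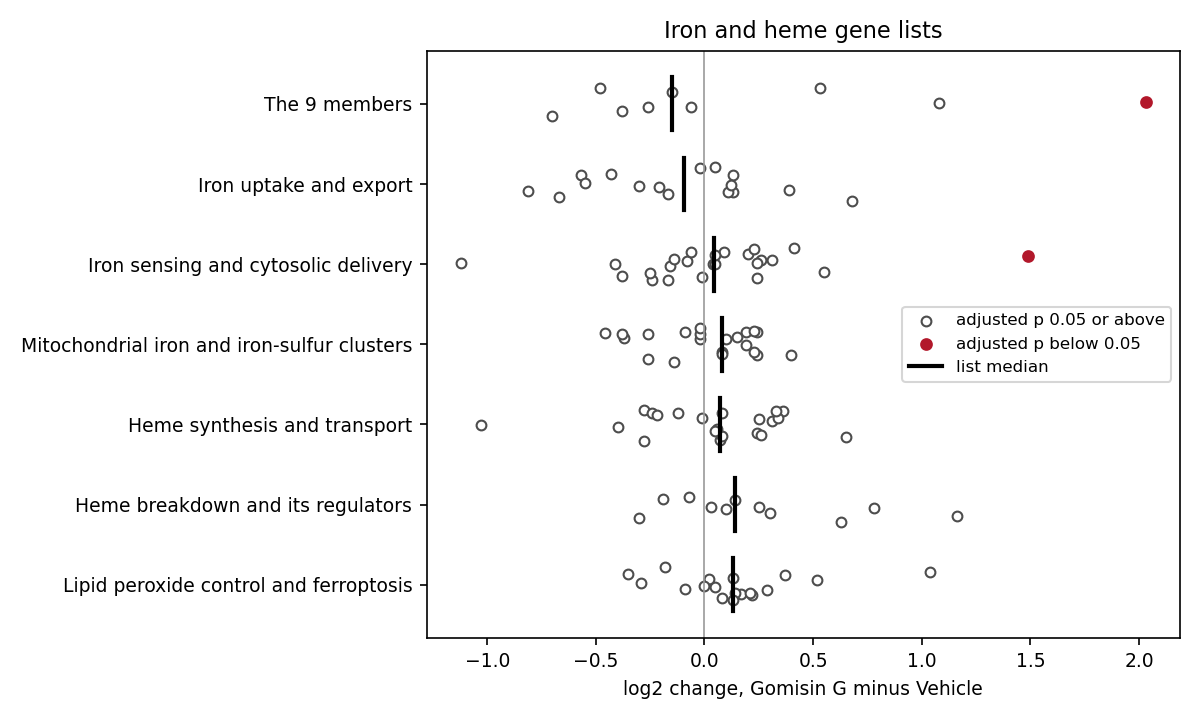
Log2 changes (Gomisin G minus vehicle) of each tested gene in the set of 9 and in the 6 iron and heme lists, with the median of each list as a black bar. The filled points, with an adjusted p below 0.05, are SLC40A1 and TP53INP2, and the medians lie between -0.15 and 0.14.

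The genes with the pattern nearest to FTL over the 4 libraries, by Euclidean distance of centred log2 CPM among 6634 genes averaging 5 or more in log2 CPM, were TST, BLVRA and TMSB4X, at distances of 0.114, 0.127 and 0.143. TST encodes the mitochondrial sulfurtransferase rhodanese and TMSB4X the actin-binding peptide thymosin beta 4. TMSB4X had 1003 and 625 CPM with Gomisin G and 357 and 362 CPM with vehicle, and TST had 111 and 71.9 CPM with Gomisin G and 43.8 and 44.3 CPM with vehicle. For TFRC the nearest were QTRT2, SNX25 and TMEM64 (0.015 to 0.020), and for HMOX1 they were PSAT1, MYEOV and CDCA4 (0.050 to 0.078). PSAT1, an enzyme of serine synthesis, had 152 and 129.8 CPM with Gomisin G and 245.5 and 203 CPM with vehicle. The distances describe likeness over 4 libraries.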

How the data were processed

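RNA-seq libraries of SW1990 cells (2 with Gomisin G, 2 with vehicle) were analysed from the deposited gene tables, in which the authors give raw, unnormalized counts. Per the submitters' processing notes, fastp, HISAT2 and featureCounts were used with the build hg38; versions, strand and multi-mapping settings are not given in the sources used here. Overlapping genes on opposite strands and near-identical copies therefore cannot be separated. Per the labels' protocols, ribosomal RNA was removed. The 234940 values of the sample tables and the series table were compared and 0 differed. Gene coordinates were the same as in GENCODE release 29 for all 58676 genes compared.

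The counts were tested with edgeR 4.0.16 in R 4.3.3: default expression filter by group, TMM factors, robust quasi-likelihood F test (not legacy) on treatment alone with 2 residual degrees of freedom, and Benjamini-Hochberg adjustment over 15721 genes. CPM uses TMM factors. TPM was computed here from the deposited gene lengths. The test was first run on simulated counts with known changes. At an adjusted p below 0.05 it called 8% of 1.5-fold, 54% of 2-fold, 82% of 4-fold and 94% of 8-fold changes. Small changes can therefore go uncalled. Alternatives were RLE and upper-quartile factors, other filters, legacy estimation, DESeq2 1.42.0, limma 3.58.1 voom, leaving out each library, a replicate block, a lowess length trend per library as an offset, and pseudogene counts added to the parent.

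The named genes were the 9 members, NFE2L2, KEAP1, BACH1, FBXL5, HMOX2, BLVRA and BLVRB, the called genes (up to 5) and the 3 genes of lowest p in each list, the top ferritin pseudogenes and the genes of nearest pattern. TAX1BP1, ATG5, ATG7, GABARAPL2, EPAS1 (which had no hairpin match) and the genes outside the members with a match were named after their values were seen. The members and lists were chosen with earlier results of these data known.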

Additional observations from a re-analysis of the deposited data

How the results depend on the processing

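SLC40A1 was the 1 member called, and other settings moved that count. It was 0 with limma voom, 0 with at least 50 counts in 2 samples (which drops SLC40A1 from the test), 2 in DESeq2 (with FTL), 2 with the length trend removed (with HMOX1), and 0 to 6 when 1 library was left out. Calls over all tested genes numbered 287, and 813 in DESeq2, 900 with the length trend removed and 135 to 6322 when 1 library was left out. Leaving out a vehicle library left the wider Gomisin G pair to supply the spread, and leaving out a Gomisin G library the narrower vehicle pair. The labels share replicate numbers without saying that these mark a culture or day. Same-numbered libraries deviated together with a correlation of 0.34, but 2 pairs are too few to establish pairing; a fit with the replicate block called 2886 genes and 4 members (FTL, HMOX1, TFRC and SLC40A1). Signs turned for ACO1, NFE2L2, BACH1 and HMOX2. ACO1 was -0.06, 0.05 with the length trend removed and -0.25 to 0.11 when 1 library was left out. Under the same omissions NFE2L2 ranged from -0.07 to 0.13, BACH1 from -0.77 to 0.05 and HMOX2 from -0.01 to 0.47. The ferritin ratio (0.42 to 0.65) and the summed ferritin change (0.52 to 1.08) kept their sign in all settings tried. Leaving out 1 library could not have turned either sign, since both Gomisin G libraries lay above both vehicle libraries. Dividing by gene length could not change the ratio difference either. The low counts of SLC40A1 limit its precision, and 2 libraries per group limit every test.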
